A study of Mus musculus with 6 samples.

Results

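Neutrophil granule genes encode the proteases, antimicrobial proteins and other contents that neutrophils pack into their granules. The 10 genes described here are Elane, Mpo, Prtn3, Ltf, Camp, Ngp, Lcn2, Retnlg, Mmp8 and Mmp9, each taken as the row of that symbol among the 32285 genes of the count matrices. All 10 were found in the files of all 6 libraries. They were read in the cells that the authors' annotation calls Neutrophils (7223 cells) or Neutrophils Ngp+ (661 cells), and then in every other annotated class, out of 55882 cells with a class and 76024 barcodes.

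The libraries were made from lungs of wild-type C57BL/6N neonatal mice, dissociated and sorted for live cells, with lung tissue of 3 mice pooled in each library. On postnatal day 1 there was a female and a male room air library. On postnatal day 21 there were a female and a male room air library, and a female and a male library from pups kept in 95% oxygen (hyperoxia) over days 1 to 5 and then returned to room air. Each combination of sex, age and treatment was therefore 1 library, and in every test below the other sex or the other condition stood in as the replicate. A p-value thus measured the spread between these libraries, each of which already averages 3 mice.

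Granule proteins are made in sequence while neutrophils mature in the bone marrow. Primary (azurophil) granules are filled at the promyelocyte stage, secondary (specific) granules at the myelocyte and metamyelocyte stages, and tertiary (gelatinase) granules in band and segmented cells. The messenger RNAs follow the same order, so their levels serve in this field as markers of maturation stage. Elane (neutrophil elastase), Prtn3 (proteinase 3) and Mpo (myeloperoxidase) are primary granule products. Ltf (lactoferrin, an iron-binding protein), Camp (the cathelicidin antimicrobial peptide), Ngp (neutrophilic granule protein) and Lcn2 (lipocalin 2, which binds bacterial iron carriers) belong to the secondary group. Mmp8 (neutrophil collagenase), Mmp9 (gelatinase B) and Retnlg (resistin-like gamma) are expressed late, and are called tertiary here, although Mmp8 protein is usually placed in secondary granules.

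The upstream sequences of 7 members are shown so that each of the 3 granule groups is represented. Each run is taken from the 250 bases before the gene's RefSeq start (GRCm38.p6, the mouse GRCm38 build) and stops before the first GENCODE exon of that strand. The run ends at the base before the GENCODE gene in Elane, Ltf, Ngp and Camp, whose RefSeq starts lie 21 to 161 bases inside that gene, and 13 bases short of it in Retnlg and 27 in Mmp8. The Prtn3 run lies inside the longer GENCODE span of its gene and ends 5137 bases past the first base of that span. Elane lies at chr10:79886247-79888215 and Prtn3 at chr10:79874476-79883174, where it overlaps Plppr3 on the other strand. Ltf lies at chr9:111019271-111042767, Camp at chr9:109847379-109849617 and Ngp at chr9:110419747-110423012, all on chromosome 9. Retnlg lies at chr16:48872621-48874496 and Mmp8 at chr9:7558456-7568485. Capitals mark GAGGAAGT, a core of the motif of the myeloid factor PU.1, and TTGCNNAA, a core of C/EBP motifs, searched on both strands. The letters were chosen after the sequences had been seen.
Elane, chr10:79886062-79886246, plus strand: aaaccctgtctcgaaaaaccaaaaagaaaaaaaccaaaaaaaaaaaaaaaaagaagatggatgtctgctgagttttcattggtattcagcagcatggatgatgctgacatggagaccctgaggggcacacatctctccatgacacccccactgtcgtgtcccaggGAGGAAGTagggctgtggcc
Prtn3, chr10:79879417-79879613, plus strand: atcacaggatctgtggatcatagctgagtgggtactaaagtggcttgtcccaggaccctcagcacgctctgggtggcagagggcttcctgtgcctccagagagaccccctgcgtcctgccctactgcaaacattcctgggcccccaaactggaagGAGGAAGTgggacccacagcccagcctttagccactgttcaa
Ltf, chr9:111019042-111019270, plus strand: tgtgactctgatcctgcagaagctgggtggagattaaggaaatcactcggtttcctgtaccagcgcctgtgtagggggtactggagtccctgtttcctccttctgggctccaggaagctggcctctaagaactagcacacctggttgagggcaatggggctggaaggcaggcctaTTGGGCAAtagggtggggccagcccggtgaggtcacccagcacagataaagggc
Ngp, chr9:110419558-110419746, plus strand: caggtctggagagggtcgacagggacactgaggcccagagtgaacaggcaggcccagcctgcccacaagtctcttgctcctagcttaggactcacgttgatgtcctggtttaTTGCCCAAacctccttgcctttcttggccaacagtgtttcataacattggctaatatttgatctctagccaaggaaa
Camp, chr9:109849618-109849706, minus strand: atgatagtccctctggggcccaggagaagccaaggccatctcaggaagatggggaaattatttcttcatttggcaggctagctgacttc
Retnlg, chr16:48872358-48872607, plus strand: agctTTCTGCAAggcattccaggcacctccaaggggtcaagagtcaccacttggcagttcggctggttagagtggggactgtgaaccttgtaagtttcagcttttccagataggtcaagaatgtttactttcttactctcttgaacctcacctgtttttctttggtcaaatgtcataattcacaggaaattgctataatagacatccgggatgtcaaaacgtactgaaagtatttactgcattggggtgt
Mmp8, chr9:7558179-7558428, plus strand: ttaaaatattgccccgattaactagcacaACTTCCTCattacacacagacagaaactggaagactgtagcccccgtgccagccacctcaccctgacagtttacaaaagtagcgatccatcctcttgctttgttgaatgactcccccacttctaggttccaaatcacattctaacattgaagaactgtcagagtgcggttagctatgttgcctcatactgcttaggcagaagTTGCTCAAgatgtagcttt
The PU.1 letters began 20 bases before the end of the printed run in Elane, 42 in Prtn3 and 221 in Mmp8, and were present in 2.44% of the 32851 windows of 250 bases before mouse gene starts. The C/EBP letters began 54 bases before the end of the run in Ltf, 77 in Ngp, 246 in Retnlg and 19 in Mmp8, and were present in 9.56% of windows. Mmp8 thus held both. Ngp had another C/EBP match past the end of its run, 11 bases before the RefSeq start. Among the members not shown, Mpo held the PU.1 letters and Lcn2 the C/EBP letters, and Mmp9 had no entry. Camp held neither in its full window. Of 4 other genes of the secondary list that were searched, Itgb2l held the PU.1 letters and Cd177, Cybb and Lyz2 held neither. Such a match describes the letters only.

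The 6 libraries held 10533 to 14968 barcodes and 122173482 to 163649658 UMIs (unique molecular identifiers, each counting 1 captured RNA molecule). Any pair of libraries shared 26 to 62 barcodes, and 0 or 1 of these were neutrophils in both. Cells of the Neutrophils class had lower median UMI counts in the day 1 libraries (3410 and 3620) than in the day 21 libraries (5083.5 to 5331). The count files of day 1 were written by Cell Ranger 6.0.0 and those of day 21 by 7.0.1, so that age and software version cannot be told apart. The female hyperoxia library stood apart from the other female libraries in Xist, an RNA made from the inactive X chromosome. An Xist UMI was found in 10.6% of its neutrophils (92 of 871), against 21.9% (249 of 1136) and 19.5% (361 of 1856) in the other female libraries and at most 1 neutrophil in any male library. Changes called after hyperoxia are given with and without this library.

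The annotated neutrophils carried the markers of their type. All 8 neutrophil markers were present in every library: S100a8, S100a9, Csf3r, Cxcr2, Il1r2, Clec4d and the members Mmp9 and Retnlg. Those members are no separate evidence of cell type here. The 8 markers summed to 124600 to 160700 UMIs per 1000000 UMIs (CPM) in the Neutrophils class. The 6 monocyte markers summed to 257 to 335 CPM there, and the 4 natural killer markers to 0.872 to 4.14 CPM, while the eosinophil granule genes Prg2 and Epx had 0 UMIs in all 6 libraries. Haemoglobin and other erythroid markers summed to 1348 CPM in the day 1 female library and to at most 8.80 CPM in the other libraries. Epithelial markers were higher at day 1 (602 and 1036 CPM) than at day 21 (157 to 214 CPM), and macrophage markers were lower (55.9 and 61.7 CPM against 232 to 300 CPM). The macrophage list includes Chil3, also a secondary granule gene. Chil3 was at 1621 to 2648 CPM in neutrophils rich in Ltf, Camp and Ngp and at 32.4 to 61.2 CPM in the others. Nearly all such rich cells of day 1 were annotated as Ngp+ and so lie outside this class. The part of RNA from other cell types in the age differences, and of Chil3 in the macrophage sums, was not tested.

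The Neutrophils class made up 9.84% of cells in the day 1 female library and 11.2% in the day 1 male library. At day 21 it made up 21.8% and 13.8% of cells in female and male room air lungs, and 10.4% and 12.3% in female and male hyperoxia lungs. Counting error (exact binomial 95% intervals) was below 1 percentage point on either side of each share. The female room air library was the highest of the 6, and the male room air (13.0 to 14.6%) and male hyperoxia (11.6 to 13.0%) libraries lay close together. Besides these cells, the authors named a class Neutrophils Ngp+ at day 1 only. It held 339 of 1475 annotated neutrophils (23.0%, 20.9 to 25.2%) in the female library and 322 of 1584 (20.3%, 18.4 to 22.4%) in the male library. At day 21 every annotated neutrophil was in the single class Neutrophils. With both classes counted, neutrophils were 12.8% (12.2 to 13.4%) of cells in the day 1 female library. In the day 1 male library they were 14.1% (13.4 to 14.7%), level with the 13.8% of male room air at day 21.

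Primary granule transcripts were close to absent from lung neutrophils. Elane had 0 UMIs in the Neutrophils class of 5 libraries and 4 UMIs in day 21 female room air. Mpo had 1 UMI in day 1 male, 1 UMI in day 21 female room air and 0 elsewhere. The Ngp+ class held 1 Elane UMI, no Mpo UMI and 4 Prtn3 UMIs over its 661 cells. Neither Elane nor Mpo passed the filter on low counts in any comparison.

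Prtn3, the remaining protease of this group, was found at a low level in every library. Its UMIs in the Neutrophils class numbered 17 and 12 in female and male day 1, 31 and 14 in female and male day 21 room air, and 10 and 26 in female and male hyperoxia. These are levels of 2.04 to 3.88 CPM, and the groups overlapped. Prtn3 did not pass the test in any of the 3 comparisons (edgeR quasi-likelihood test with Benjamini-Hochberg adjustment over all genes: adjusted p = 0.513 for age, 0.995 for hyperoxia and 0.9998 for sex). Neutrophils with at least 2 UMIs of Elane, Mpo and Prtn3 together numbered 3 of 1475, 0 of 1584, 2 of 1856, 1 of 977, 0 of 871 and 3 of 1121 in the order day 1 female, day 1 male, day 21 female and male room air, and female and male hyperoxia. The highest of these shares was 0.268%, and the 0 of 1584 in day 1 male allows a share of up to 0.233% (exact 95% interval). In general capillary endothelial cells (gCap), which should lack these genes, 2 of 1683 cells (0.119%) passed the same count in day 1 male and none did in the other libraries. Prtn3 in gCap was at 0 to 0.482 CPM in 5 libraries, below the neutrophil level of the same library in each, although gCap cells were deeper. In day 1 male it was at 3.67 CPM in gCap, with 88.9% of those UMIs in 1 cell, against 2.64 CPM in neutrophils. Too few neutrophils held a primary granule UMI (0.947 to 1.96%) for a correlation with other transcripts to be read.

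The secondary granule genes Ltf, Camp and Ngp were expressed by few cells, and in those cells strongly. In the Neutrophils class Ltf was at 10.7 and 5.94 CPM in female and male day 1, at 386 and 515 CPM in female and male day 21 room air, and at 471 and 754 CPM in female and male hyperoxia. Camp was at 51.5 and 30.6 CPM at day 1, at 1024 and 891 CPM in day 21 room air and at 1260 and 1848 CPM after hyperoxia, females before males. Ngp was at 115 and 124 CPM at day 1, at 1446 and 1610 CPM in day 21 room air and at 1720 and 2399 CPM after hyperoxia. For all 3 genes the day 1 libraries lay below every day 21 library, and the male hyperoxia library was the highest.

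The authors' Ngp+ class turned this order around. Within it Ngp reached 19170 and 19840 CPM, Camp 14340 and 14630 CPM, and Ltf 5057 and 5187 CPM in the female and male library. Over both neutrophil classes of day 1, Ltf was at 2485 and 2257 CPM, Camp at 7056 and 6375 CPM, and Ngp at 9457 and 8692 CPM. With the Ngp+ cells counted, both day 1 libraries therefore lay above all 4 day 21 libraries for these genes. Ngp names that class, so its level there describes the annotation and is not a test. The Ngp+ cells had median UMI counts of 12136 and 9071.5, and Scrublet called 24.2% and 13.0% of them doublets, against 0.713 to 3.12% of the Neutrophils class. Endothelial markers summed to 779 and 312 CPM in them, and macrophage markers, a list that shares Chil3 with the secondary genes, to 1435 and 1687 CPM.

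**Figure D1:**
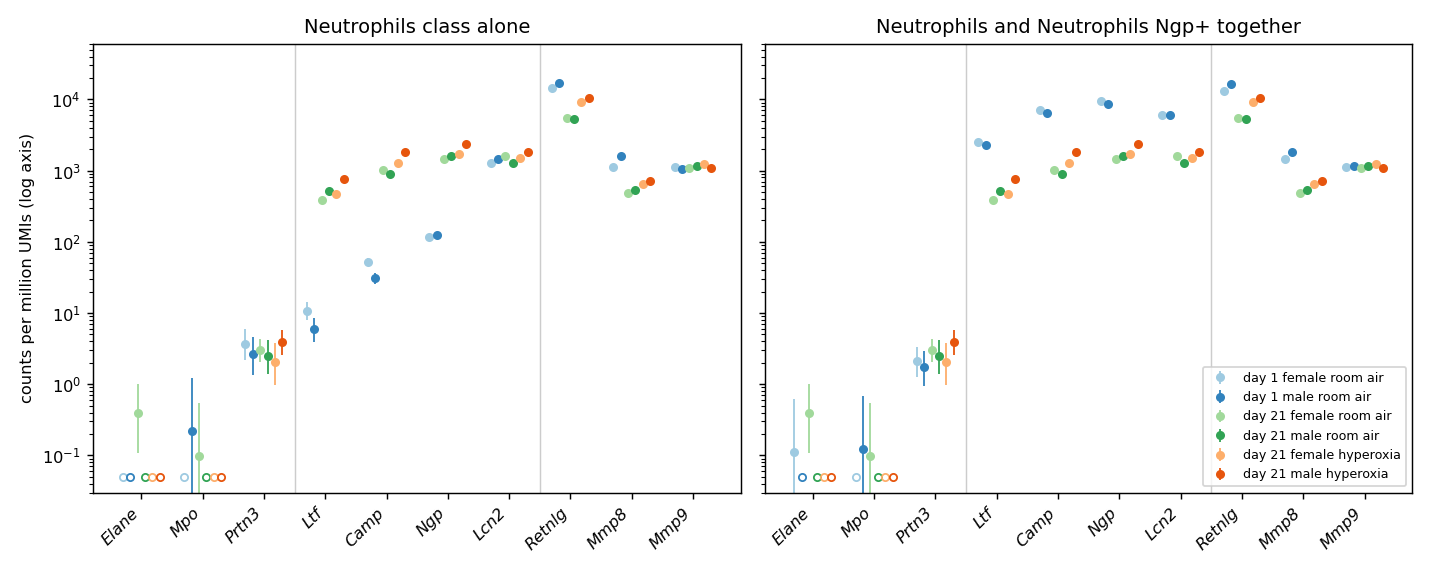
Levels of the 10 granule genes in CPM (log axis) in each of the 6 libraries, for the Neutrophils class alone (left) and for both neutrophil classes (right). Points are libraries, bars are exact Poisson 95% intervals (counting error only), and open circles drawn at 0.05 are libraries with 0 UMIs. At day 1 Ltf, Camp and Ngp sit at the bottom of their columns on the left and at the top on the right, while Mmp9 stays between 1065 and 1231 in both.

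The age comparison set the day 21 against the day 1 libraries kept in room air, with a term for sex. In the Neutrophils class it called 63.6% of all 9930 genes tested (33.8% higher and 29.8% lower at day 21), so that a called gene was the usual case. For Ltf, Camp and Ngp that fit is no test, because the authors set the Ngp+ cells apart at day 1 only, and these held 61.9 to 72.2% of each day 1 library's UMIs of the 3 genes. As a description of what the split left, the log2 difference of day 21 from day 1 in the Neutrophils class was 5.62 for Ltf, 4.45 for Camp and 3.55 for Ngp. Of the other 5 testable members, 2 were called there, Retnlg and Mmp8. The 3 genes were tested over the sum of both neutrophil classes, a choice made after seeing the data. Camp then fell by 2.78 on the log2 scale (SE 0.165, adjusted p = 4.383e-13), Ngp fell by 2.54 (SE 0.168, adjusted p = 3.29e-12) and Ltf fell by 2.38 (SE 0.152, adjusted p = 1.866e-12), each in both sexes. That fit called 68.5% of 11752 genes, and 33.7% were called lower.

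Lcn2, which is also made by epithelium, passed in the sum of both classes and not in the Neutrophils class, where the split of the Ngp+ cells bears on it too. Its level in the Neutrophils class was 1262 and 1456 CPM in female and male day 1, 1596 and 1287 CPM in day 21 room air, and 1480 and 1829 CPM after hyperoxia, with overlapping groups. The age difference was -0.04 (SE 0.102, adjusted p = 0.735). Over both classes Lcn2 was at 6078 and 6073 CPM at day 1 and fell by 2.06 on the log2 scale to day 21 (SE 0.166, adjusted p = 1.243e-10). It also fell, by 1.28 (adjusted p = 6.527e-13), among the neutrophils of both classes that had under 1% of their UMIs from Ltf, Camp and Ngp.

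The share of neutrophils with strong secondary expression shows the same difference per cell. Cells with at least 1% of their UMIs from Ltf, Camp and Ngp were 262 of 1475 (17.8%, 15.8 to 19.8%) in female and 234 of 1584 (14.8%, 13.1 to 16.6%) in male day 1 lungs. In room air at day 21 they were 34 of 1856 (1.83%, 1.27 to 2.55%) in females and 18 of 977 (1.84%, 1.10 to 2.90%) in males. After hyperoxia they were 23 of 871 (2.64%, 1.68 to 3.94%) in females and 40 of 1121 (3.57%, 2.56 to 4.83%) in males. The day 1 shares lay above all day 21 shares, and among the day 21 libraries the intervals of the same sex overlapped. Some cells lay near the limit: 90 and 87 at day 1 and 4 to 12 at day 21 had between 0.5% and 2%. The day 1 shares were 20.1 and 17.2% at a limit of 0.5% and 14.03 and 11.7% at 2%. Among gCap cells 8 of 2060 (0.388%) passed it in the day 1 female library and none in the others. After each cell had been thinned to 1000 UMIs the neutrophil shares were 17.5% and 14.7% at day 1 and 1.67 to 3.57% at day 21. In the day 1 Neutrophils class alone they were 0.0880% and 0%, since all but 1 of the day 1 cells above the limit were annotated as Ngp+.

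Within the annotated neutrophils these few cells held nearly all of the secondary transcripts. They contained 98.2 to 99.03% of the neutrophils' Ltf UMIs, 97.7 to 99.5% of Camp and 93.1 to 96.9% of Ngp in every library, but 40.7 to 81.4% of Lcn2. They also held 23.0 to 45.6% of Mmp8, 10.6 to 27.3% of Retnlg and 7.79 to 37.9% of Mmp9. The last 3 shares are to be read against the cells' share of all neutrophil UMIs, which was 36.2 and 40.6% at day 1 and 5.05 to 8.35% at day 21. Relative to the remaining neutrophils, Retnlg per UMI was therefore lower in these cells in both day 1 libraries and higher in all 4 day 21 libraries. Barcodes with no class, which enter no age test, held secondary transcripts too. Their Camp UMIs numbered 37911 and 20849 at day 1 (female, male), where the secondary-high neutrophils held 62173 and 50270. In day 21 room air they numbered 6184 and 8544 against 10320 and 4923, and after hyperoxia 10309 and 21142 against 6015 and 12247. Whether these barcodes are neutrophils was not tested.

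Beyond Ltf, Camp and Ngp, which chose them, these cells shared other features, given as a description. Their median UMI counts were 10617.5 to 14723.5, against 3482.5 to 5303 in the other neutrophils of the same libraries. Over all 13586 genes with at least 20 UMIs, 7.88% were higher in them in all 6 libraries and 22.3% were lower in all 6. Of 18 listed secondary granule genes with as many UMIs, 14 were higher in all 6, the 3 choosing genes included, and Hp (-0.15) and Lrg1 (-0.79) were lower in all 6. Among the other genes that were higher were Chil3 (chitinase-like 3, median log2 ratio 5.75), Itgb2l (4.59), Cybb, the catalytic subunit of the phagocyte oxidase (4.28), and Cd177 (4.05). Of 17 genes listed for mature neutrophils, their surface and secretory vesicles, 13 were lower in all 6 and 1, Fpr2 (1.635), was higher in all 6. The lower genes included Il1b (-6.98), Ccl6 (-4.33), Csf3r, the G-CSF receptor (-3.51), and Cxcr2 (-1.69). All but Ifitm3 of 8 interferon-stimulated genes were lower in all 6 libraries. Of 11 granulocyte transcription factors 2 were higher in all 6, Cebpe, which is required for secondary granules (median log2 ratio 3.65), and Myb (3.68), and 5 were lower in all 6: Cebpb (-1.76), Klf6 (-1.53), Cebpd (-1.29), Spi1, which encodes PU.1 (-0.91), and Runx1 (-0.60). Of 8 protease inhibitors the elastase inhibitor Serpinb1a (5.48) and Stfa3 (1.60) were higher in all 6, and Slpi (-1.51) and Cst3 (-1.09) were lower. Of 8 tertiary genes Mmp8 (2.37) and Mmp25 (1.84) were higher in all 6 and Slc11a1 (-2.25) and Arg2 (-3.02) lower, and 4 of 5 release and retention genes were lower. Of 12 cell cycle genes only H2afz was higher in all 6 (0.39), and no cell cycle gene was lower in all 6. These genes were rare, and a library with 0 UMIs in its few such cells cannot count as higher. Summed over the libraries, Top2a had 113 UMIs in these cells and 55 in the other neutrophils, and Hist1h1b 239 and 60. Mki67 had 205 and 216 and Tuba1b 267 and 542. All these counts are to be read against the cells' 5.05 to 40.6% of a library's neutrophil UMIs. Mki67 per UMI was higher in the secondary-high cells in 3 libraries and lower in 3, and Tuba1b was higher in 2 and lower in 4. The median log2 ratios of those 2 genes were below 0 (-0.30 and -0.81). Their highest levels were 30.1 and 39.7 CPM in the secondary-high cells, against 6.97 and 16.5 CPM in the other neutrophils.

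Across single neutrophils the 3 secondary genes rose and fell together. The correlation of log-scaled Ltf and Camp was 0.921 to 0.956 over the 6 libraries, and that of Ltf and Ngp was 0.795 to 0.915. Lcn2 followed Ltf less closely (0.323 to 0.666), and Retnlg hardly followed it at all (-0.00 to 0.13). Among 6959 genes with enough neutrophils in every library, those most like the sum of Ltf, Camp and Ngp were Itgb2l (mean correlation 0.728), Adpgk (0.695), Cd177 (0.692), Serpinb1a (0.688) and Cybb (0.675). The lowest was Csf3r (-0.689). The cells of a library share its depth and free RNA, so these correlations describe the libraries and carry no p.

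**Figure D2:**
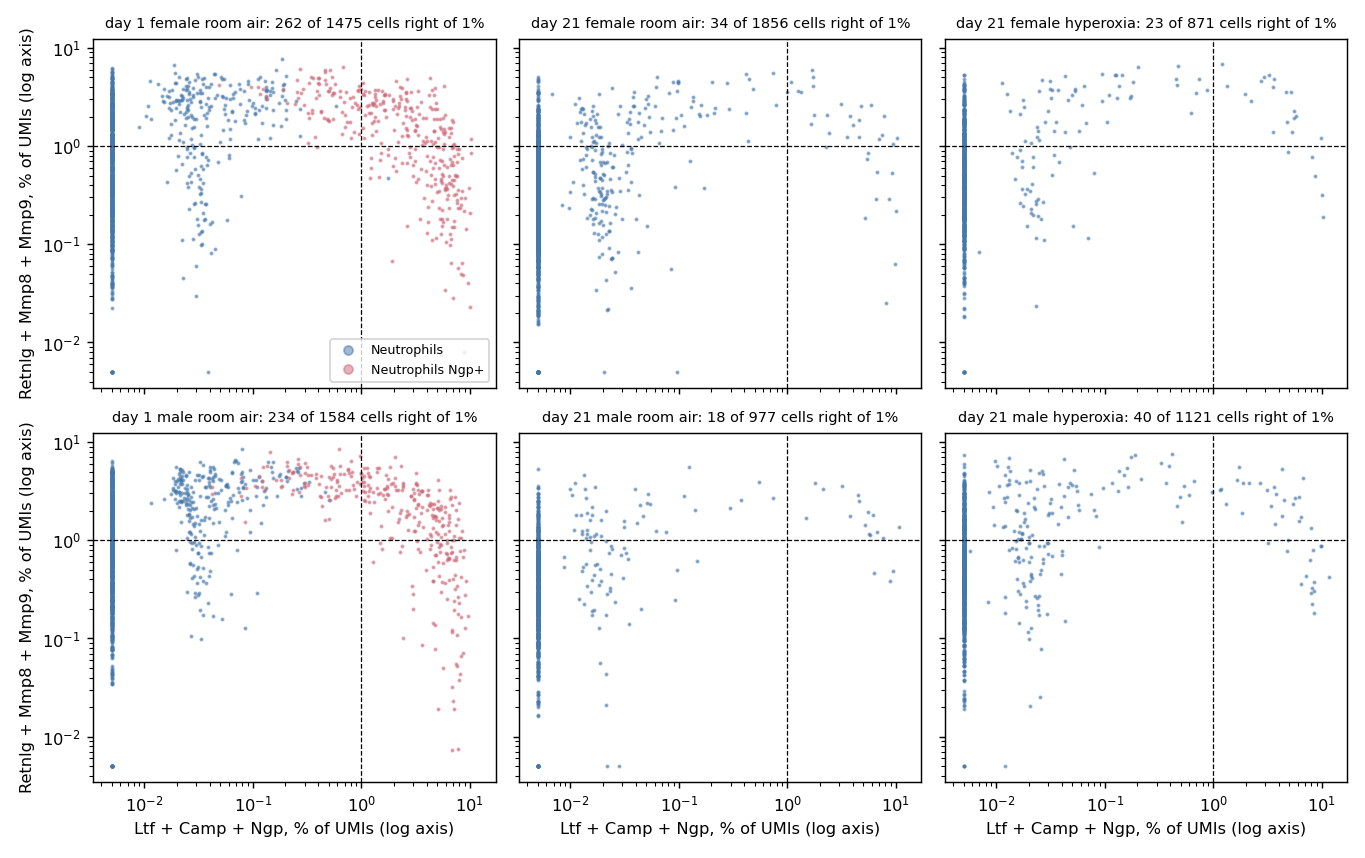
Each point is 1 neutrophil, placed by the share of its UMIs from Ltf, Camp and Ngp (horizontal) and from Retnlg, Mmp8 and Mmp9 (vertical), in percent on log axes, with 1 panel per library. Blue points are the Neutrophils class and red points the Ngp+ class, cells at 0 are drawn at 0.005, and dashed lines mark 1%. The red cloud at the right of the day 1 panels is replaced at day 21 by 18 to 40 blue cells, and many cells at the right lie above the horizontal line as well.

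Retnlg and Mmp9 were found in most neutrophils of every library and Mmp8 in 48.8 to 82.6% of the Neutrophils class, and Retnlg and Mmp8 were higher in newborn than in day 21 lungs. Retnlg, which encodes a secreted resistin-like protein, was at 14340 and 16880 CPM in female and male day 1, at 5529 and 5250 CPM in day 21 room air, and at 9260 and 10590 CPM after hyperoxia. The 3 conditions did not overlap, with hyperoxia between the others. Mmp8 followed the same order, at 1135 and 1615 CPM at day 1, 491 and 538 CPM in day 21 room air and 650 and 726 CPM after hyperoxia. Mmp9 was level, at 1125 and 1065, 1087 and 1165, and 1231 and 1096 CPM in the same order.

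From day 1 to day 21 Retnlg fell by 1.65 on the log2 scale (SE 0.0964, adjusted p = 3.726e-20) and Mmp8 fell by 1.52 (SE 0.1001, adjusted p = 3.366e-18). Both fell in each sex, and in the sum of both neutrophil classes as well (by 1.41, adjusted p = 3.687e-07, and by 1.64, adjusted p = 5.17e-10). Among neutrophils under 1% secondary transcripts (62% of 10097 genes called), Retnlg fell by 1.86 (adjusted p = 4.335e-17) and Mmp8 by 2.07 (adjusted p = 3.932e-22). Mmp9 did not pass the test in any of these fits (-0.08, adjusted p = 0.439, in the Neutrophils class). Upper-quartile scaling, which shifted the median of all genes by -0.28, gave -0.36 for Mmp9 and -0.32 for Lcn2, both then past the threshold (adjusted p = 0.00284 and 0.0287). Retnlg and Mmp8 kept their direction and their call in all 10 alternatives fitted to the Neutrophils class.

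**Figure D3:**
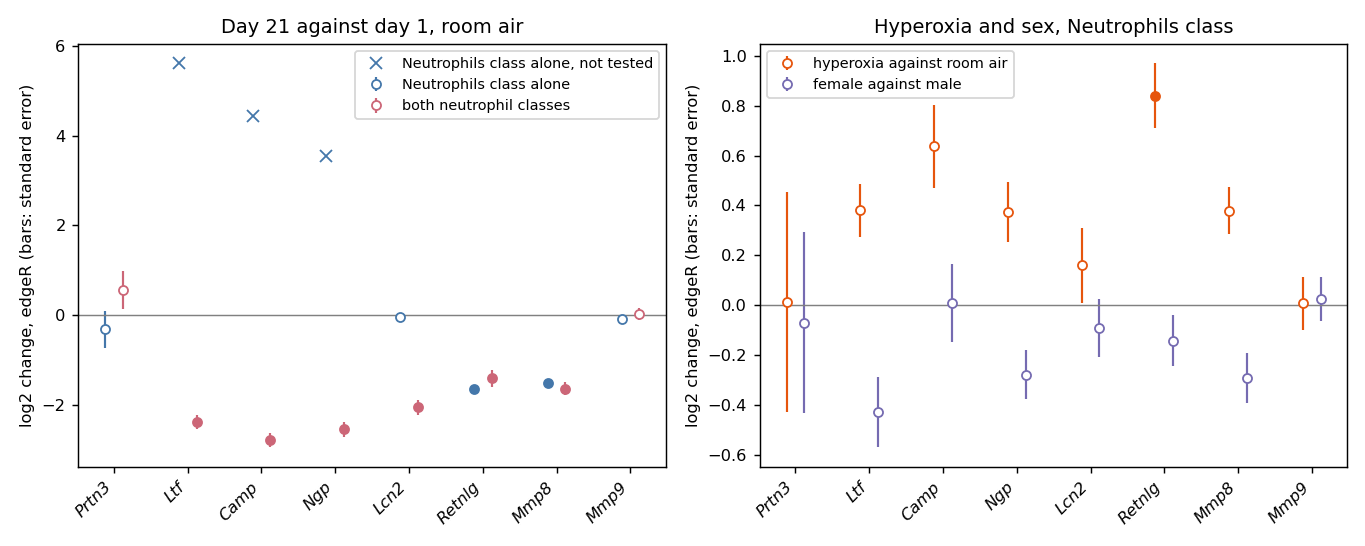
Log2 changes of the 8 testable granule genes from edgeR, with bars of 1 SE and filled points for adjusted p under 0.05. Crosses are Ltf, Camp and Ngp in the Neutrophils class, given with no test. The left panel gives day 21 over day 1 for the Neutrophils class and for both classes, and the right panel gives hyperoxia over room air and female over male. Ltf, Camp and Ngp lie between 3.55 and 5.62 for the class alone and between -2.78 and -2.38 for both classes, and Retnlg is the only filled point on the right.

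Per cell, the median neutrophil of the Neutrophils class had 72.8 and 98.3 Retnlg UMIs per 10000 at day 1 (female, male), 16.4 and 18.1 in day 21 room air, and 33.0 and 44.9 after hyperoxia. Retnlg was found in 88.9 and 93.3% of these cells at day 1, in 83.6 and 86.7% in day 21 room air and in 92.5 and 94.5% after hyperoxia, at median depths of 3410 to 5331 UMIs. In gCap cells, at median depths of 5203 to 8693.5 UMIs, it was found in 2.17 to 6.89%. Cells with at least 1% of UMIs from Retnlg, Mmp8 and Mmp9 made up 50.8% (48.2 to 53.4%) and 59.5% (57.0 to 61.9%) of both neutrophil classes at day 1, 16.7% (15.0 to 18.5%) and 16.5% (14.2 to 19.0%) in day 21 room air, and 28.5% (25.5 to 31.6%) and 32.7% (367 of 1121 cells) after hyperoxia. Retnlg supplied most UMIs of this sum in every library. Over both classes it was at 5250 to 16430 CPM, against 491 to 1848 CPM for Mmp8 and 1087 to 1231 CPM for Mmp9. The shares therefore mainly follow Retnlg, and Mmp9 was level. This measure is a range and not a type, since 310 to 555 cells per library lay between 0.5% and 2%. No gCap cell passed it. After thinning to 1000 UMIs the shares were 52.1 and 60.0%, 17.5 and 18.0%, and 28.9 and 36.8%.

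Tertiary and secondary expression overlapped in part of the cells. Of 262 and 234 secondary-high cells at day 1, 131 and 148 were also at or above 1% of tertiary transcripts. At day 21 this held for 23 of 34 and 15 of 18 cells in room air and for 18 of 23 and 25 of 40 after hyperoxia. Across neutrophils Retnlg and Mmp8 correlated at 0.462 to 0.573, and Retnlg and Mmp9 at 0.260 to 0.299. The genes most like the tertiary sum, which is mostly Retnlg, were S100a9 (0.553) and S100a8 (0.544), the calprotectin subunits. Wfdc21 (0.452), Lyz2 (0.435) and Lcn2 (0.395) followed.

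**Figure D4:**
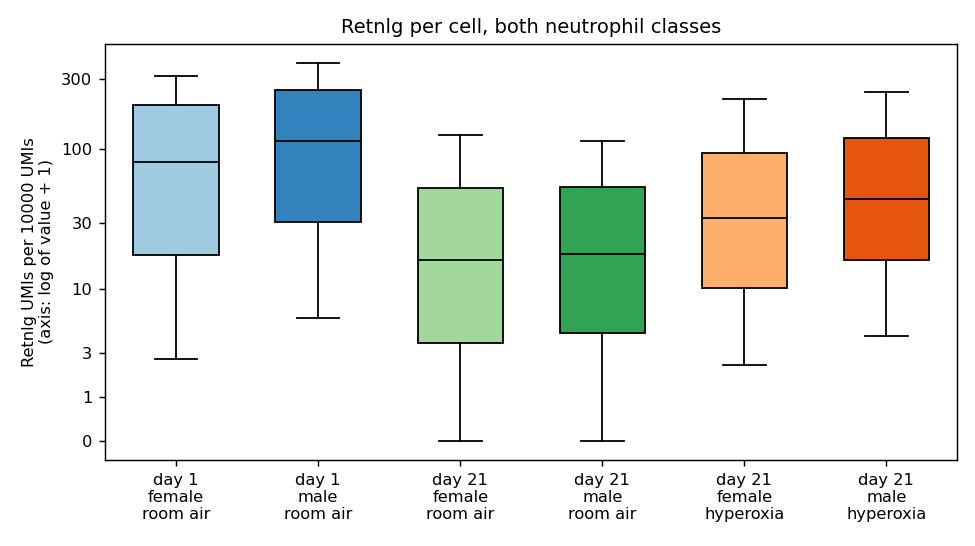
Retnlg UMIs per 10000 in single neutrophils of both classes, by library, on an axis of log(value + 1). Boxes show the 25th, 50th and 75th percentiles and whiskers the 10th and 90th. The medians are 80.4 and 113 at day 1, 16.4 and 18.1 in day 21 room air and 33.0 and 44.9 after hyperoxia.

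The hyperoxia comparison asks what remained on day 21 of an oxygen exposure that had ended on day 5. In neutrophils it called 1 of the 8 testable members, Retnlg, beside 0.95% of 10424 genes, and 0.365% called higher. Retnlg was higher after hyperoxia by 0.84 on the log2 scale (SE 0.130, a 1.79-fold difference, adjusted p = 0.0258). The ratio of the libraries was 1.68 in females (1.65 to 1.70, counting error only) and 2.02 in males (1.99 to 2.05). DESeq2, which called 0.719% of the genes, also called it (adjusted p = 3.305e-08). So did the fit on cells under 1% secondary transcripts, which called 2.81% of genes (Retnlg 0.85, adjusted p = 0.00148). Without the day 21 female or the day 21 male room air library the change stayed at 0.88 and 0.79 but the adjusted p rose to 0.103 and 0.122. Those fits had 3 libraries and no sex covariate.

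The other members did not pass this test, though Camp, Ltf, Ngp and Mmp8 had positive values in both sexes. Camp was 0.64 (SE 0.167, adjusted p = 0.153), Mmp8 0.38 (SE 0.0945, adjusted p = 0.130), Ltf 0.38 (SE 0.106, adjusted p = 0.171) and Ngp 0.37 (SE 0.119, adjusted p = 0.227). In the single libraries Camp was 1.23 times the room air level in females and 2.07 times in males, and Ltf was 1.22 and 1.46 times. Lcn2 (0.16, adjusted p = 0.733) and Mmp9 (0.01, adjusted p = 0.988) had opposite signs in the sexes. Without the female hyperoxia library, the one with fewer Xist-positive cells, 5 members passed and 873 genes (7.78%) were called in place of 99. Camp was then 0.90 (adjusted p = 6.752e-16), Ltf 0.70 (adjusted p = 5.146e-10), Ngp 0.61 (adjusted p = 6.544e-07) and Mmp8 0.45 (adjusted p = 0.000325), with Retnlg at 0.93 (adjusted p = 7.786e-14). Without the male hyperoxia library 2 members passed, Retnlg and Camp, beside 2.96% of all genes. With Scrublet doublets left out (3.93% of genes called), or with no filter on low counts (2.48%), 5 members passed as well.

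Sex showed no called member. Of the 8 members tested over all 6 libraries, edgeR called 0, DESeq2 called 0, and Ltf, Mmp8 and Ngp had an unadjusted p under 0.05, as did 5.32% of all genes. Female minus male differences were -0.43 for Ltf (edgeR adjusted p = 0.571), -0.29 for Mmp8 (adjusted p = 0.649) and -0.28 for Ngp (adjusted p = 0.692). This comparison called 0.101% of 9870 genes by edgeR and 0.0709% by DESeq2. Leaving out either hyperoxia library raised the number of called genes from 10 to 134 (1.29%, without the female) or 124 (1.23%, without the male) and called 1 member in each case.

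Other genes of the granule and maturation programme were taken from lists. Their members, like the 10 genes, were chosen with earlier results of these data known. The list counts for age are to be read against all genes, of which 63.6% passed in the Neutrophils class (33.8% higher, 29.8% lower) and 68.5% over both classes (34.8% higher, 33.7% lower). The split of the Ngp+ cells at day 1 bears on every list count of the Neutrophils class, above all the secondary one. In that class 16 of 18 secondary granule genes passed, 8 higher and 8 lower, from Olfm4 (olfactomedin 4, -4.02) to Ltf. The list's median was -0.02, as was that of all genes tested after rounding. Over both classes all 18 passed, 16 of them lower at day 21, from Olfm4 (-4.43) to Lrg1 (1.12), with a median of -1.65 beside -0.05 for all genes. Inhibitors of granule proteases fell in 5 of 7 tested genes and rose in 1, in either fit, with medians of -1.05 and -2.41. They ran from the stefin Stfa3 (-4.18 and -5.29) to Serpinb1a (0.74) in the class alone and to Slpi (0.50) over both classes.

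The list of surface and secretory genes also holds genes of mature neutrophils whose products lie elsewhere, such as Stfa2l1. Of its 17 tested genes, 8 rose and 8 fell in the class alone (63.6% of all genes called). They ran from Stfa2l1 (-2.28) to Clec4e, a C-type lectin receptor (1.87). Over both classes (68.5% called) 10 rose and 4 fell, from Stfa2l1 (-2.16) to Clec4e (2.55). Cell cycle genes fell in 5 of 8 tested and rose in 1 in the class alone, from Ube2c (-2.07) to Ccnb2 (1.42). Over both classes 11 of 12 fell and none rose, from the histone gene Hist1h1b (-3.53) to H2afz (-0.33), with a median of -1.97. More genes of this list passed the low-count filter there than in the class alone (12 against 8), after the day 1 Ngp+ cells had been added. A gene that entered through those cells could only be called lower, so the filter bears on this count and median. Among granulocyte transcription factors Cebpe was the lowest (-2.08 in the class alone, -3.12 over both) and Runx1 the highest (2.53 and 2.97), with 5 of 8 and 7 of 9 called. The tertiary list gave 7 of 8 called genes in the class alone (4 higher) and 5 of 8 over both (3 higher), with the arginase gene Arg2 highest (1.41 and 2.27). Release and retention genes rose in 4 of 5 and 5 of 5, up to Itga4 (0.97 and 1.86). Interferon-stimulated genes passed in 6 of 8 (2 higher, 4 lower) and 5 of 8 (4 higher, 1 lower), with Gbp2 highest (2.35 and 3.12).

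After hyperoxia 3 of 18 secondary granule genes passed, beside 0.95% of all 10424 genes (0.365% higher, 0.585% lower): Lyz2 (lysozyme, 0.78, adjusted p = 0.0200) and Chil3 (0.69, adjusted p = 0.0470) were higher and Lrg1 (-0.60, adjusted p = 0.0470) was lower. The inhibitors Stfa1 (-0.87, adjusted p = 0.0219) and Stfa2 (-0.93, adjusted p = 0.0306) were lower, as 2 of 7 tested. The interferon-stimulated genes Ifit1 (-1.01, adjusted p = 0.0255) and Gbp2 (-1.16, adjusted p = 0.0498) were lower, and the median of their 8 genes was -0.48 beside 0.01 for all genes. Retnlg was the only call among 8 tertiary genes. Without the female hyperoxia library, which leaves 1 hyperoxia library, all 8 of these list genes kept their direction. Lyz2 was 0.83, Chil3 0.74, Retnlg 0.93, Lrg1 -0.49, Stfa1 -0.78, Stfa2 -0.95, Ifit1 -1.03 and Gbp2 -1.30. Without the female room air library Lyz2 (adjusted p = 0.0591), Lrg1 (0.162) and Stfa2 (0.0741) no longer passed, nor without the male room air library did Chil3 (0.199) and Lrg1 (0.0762). DESeq2 did not call Gbp2 (adjusted p = 0.334) or Stfa2 (0.0973) and gave no adjusted p for Ifit1. No gene passed among 17 surface genes, 9 transcription factors, 6 cell cycle genes and 5 release genes. No gene of any list passed in the sex comparison.

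Outside neutrophils the primary genes were found mainly in monocytes and in barcodes with no class. At day 1 Elane reached 61.7 and 43.4 CPM (female, male) in Classical Monocytes 2 and 7.90 and 30.2 CPM in Classical Monocytes 1, while the Neutrophils class held none. These levels came from a minority of cells. Elane was found in 12.77 and 12.84% of Classical Monocytes 2 cells and in 3.57 and 6.49% of Classical Monocytes 1 cells. Prtn3 was at 115 and 102 CPM in Classical Monocytes 2, at 61.4 and 123 CPM in Classical Monocytes 1, and at 14.8 to 26.3 CPM in the day 21 Classical Monocytes. Each of these levels was above the 2.04 to 3.88 CPM of neutrophils. Prtn3 was found in 36.5 and 35.8% of Classical Monocytes 2 cells, against 0 to 0.448% of gCap cells.

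Mpo had a different distribution. At day 1 it was highest in the NK Cells class (31.8 and 61.2 CPM) and in the Mast Basophils (34.1 and 65.5 CPM, from 32 and 24 cells). In the male Mast Basophils 1 cell held 11 of the 15 Mpo UMIs. In the NK Cells class nearly all Mpo UMIs, 55 of 57 and 79 of 79, lay in a few cells. These were the 7 of 137 and 7 of 97 cells that had at least 5 primary granule UMIs. Of these, 4 of 7 in the female and 7 of 7 in the male library had a UMI of the progenitor gene Cd34, 6 and 7 of Kit, and 5 and 7 of Myb. Among the other cells of the class the shares were 10.0 and 11.1% for Cd34, 13.1 and 20.0% for Kit and 9.23 and 11.1% for Myb. None of the 7 and 7 had a UMI of Ncr1, a natural killer receptor, found in 47.7 and 38.9% of the other cells. From day 1 to day 21, Mpo and Prtn3 were called lower in the NK Cells class and listed at 0 UMIs in both day 21 room air libraries, which leaves no finite fold change. Both genes entered that test through the day 1 libraries alone, so no other direction could be called. Barcodes with at least 5 primary UMIs numbered 73 and 79 at day 1 and 4 to 13 at day 21. The 44 and 53 of them in monocyte classes all had a UMI of the monocyte gene Ly6c2, as did 77.1 and 90.3% of the other cells of those classes.

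Lcn2 and Mmp8 were also found in classes other than neutrophils. Lcn2 was at 426 to 870 CPM in AT2 cells, the surfactant-making cells of the alveolus, in the 5 libraries where that class was large enough to be read, and in 88.9 to 100% of those cells, at median depths of 18800 to 24277 UMIs, against 1.19 to 4.71% of the shallower gCap cells. It was at 772 and 923 CPM in Classical Monocytes 2. Mmp8 was at 668 and 874 CPM in Classical Monocytes 2, at 186 and 277 CPM in Classical Monocytes 1 and at 74.9 to 144 CPM in the day 21 Classical Monocytes, which puts its highest class outside neutrophils at 11.5 to 47.3% of the level in both neutrophil classes of the same library. It was found in 92.0 and 95.8% of Classical Monocytes 2 cells, against 0.210 to 1.65% of gCap cells.

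The other classes held the secondary transcripts at a low level that differed between classes. Over 16 to 18 classes per library the median of Ltf, Camp or Ngp was 0.0360 to 0.185% of the level in neutrophils, both classes together, and the highest class reached 0.121 to 1.43%. In the day 1 female library Ngp was at 97.7 CPM in NK Cells and 82.6 CPM in Pericytes, beside a median of 5.55 CPM over 18 classes. Retnlg differed more: its highest class was Classical Monocytes 2 (768 CPM), followed by Pericytes (658 CPM), in day 1 female, and Prolif Ecs (801 CPM), followed by Classical Monocytes 2 (359 CPM), in day 1 male, where the medians over 18 classes were 49.2 and 22.0 CPM. At day 21 the highest class was at 53.3 to 124 CPM. Retnlg was in gCap at 37.8 and 25.5 CPM at day 1, at 5.42 and 2.74 CPM in day 21 room air and at 3.55 and 11.6 CPM after hyperoxia. Ngp was in gCap at 16.2 and 4.18 CPM at day 1 and at 0.876 to 1.53 CPM at day 21. Both were higher in each day 1 library than in any day 21 library. Free RNA and doublets were not separated from expression here.

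**Figure D5:**
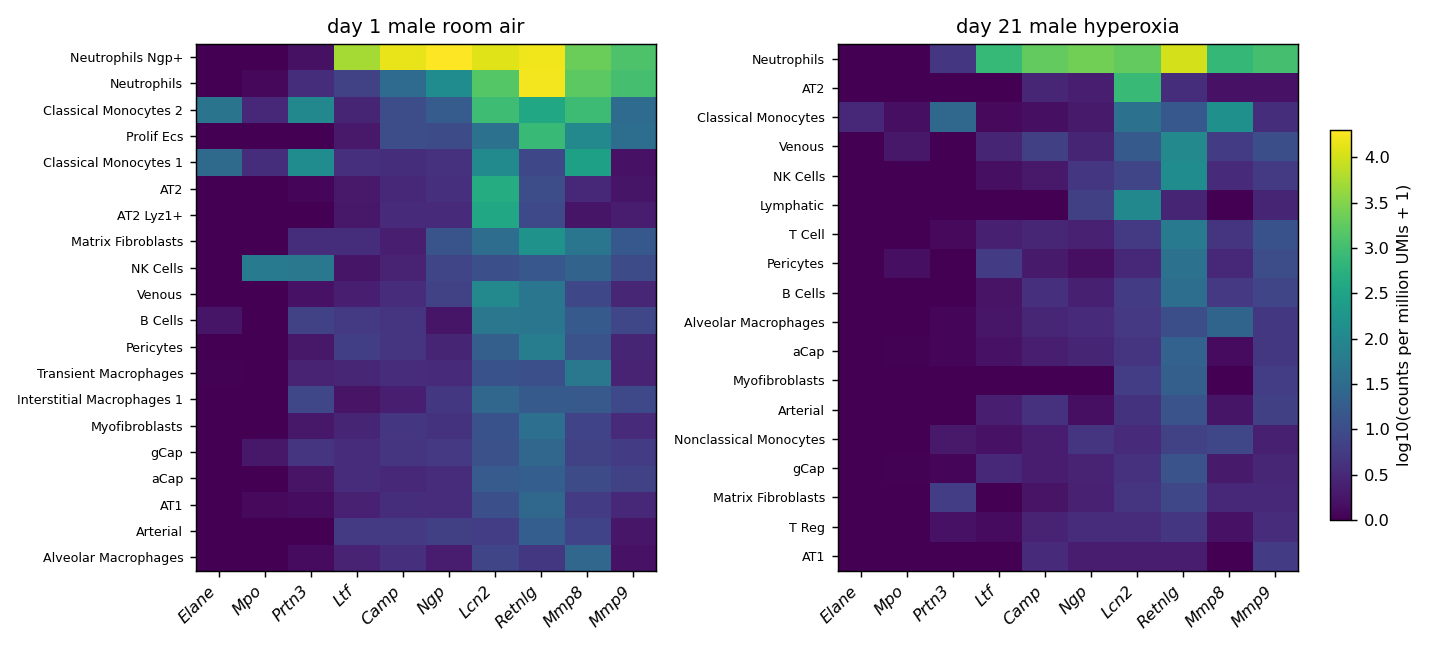
Level of each granule gene by annotated class, as log10(CPM + 1), in the day 1 male room air and day 21 male hyperoxia libraries. Lighter colours are higher levels. Raised squares outside the neutrophil rows include Elane and Prtn3 in the monocyte classes and Mmp8 and Lcn2 in Classical Monocytes 2 at day 1. Lcn2 in AT2 cells is raised as well.

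The same age contrast was fitted in the other classes. Of 45 pairs of a granule gene and a class that could be tested, in 9 classes, 35 passed and 34 of them were lower at day 21, beside 53.4% of all 99099 gene and class pairs called and 25.3% called lower. Lcn2 was lower in 7 of 9 classes, Mmp8 in 7 of 8, Retnlg in 6 of 9, Camp in 4 of 5, Ngp in 4 of 4, Ltf in 2 of 2, Mpo and Prtn3 in 1 of 1 each and Mmp9 in 2 of 6. The low-count filter could let a gene in through the libraries of a single age. Pairs high at day 1 alone, such as Mpo, Prtn3 and Ngp in NK Cells and Mmp8 in gCap, could therefore only be called lower. AT2 was not among the 9 classes. Lcn2 in AT2 was at 426 (female) and 453 (male) CPM at day 1 and at 870 CPM in day 21 female room air. In gCap, Retnlg fell by 3.08 on the log2 scale (adjusted p = 1.15e-19), Camp by 3.63 (adjusted p = 6.562e-13), Ngp by 3.02 (adjusted p = 2.958e-12) and Ltf by 1.87 (adjusted p = 8.799e-06). Mmp9 went both ways: it was lower in aCap (-2.49, adjusted p = 2.835e-12) and gCap (-2.56, adjusted p = 6.186e-11), and in Myofibroblasts it was the 1 pair called higher (1.83, adjusted p = 0.00324). DESeq2 called 21 pairs, beside 27.2% of all pairs.

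After hyperoxia 4 of 44 pairs passed, in 12 classes, beside 2.38% of 144343 pairs, and DESeq2, which called 0.777% of all pairs, called none of the 4. It gave no adjusted p for Retnlg in Arterial (log2 change 2.36) and Mmp9 in Myofibroblasts (-2.50), and for Retnlg in Classical Monocytes and Myofibroblasts it gave 1.87 (adjusted p = 0.252) and -2.41 (adjusted p = 0.390). Retnlg was higher in Arterial endothelium (2.37, adjusted p = 3.642e-09), where it was at 4.09 and 2.55 CPM in room air and at 22.4 and 11.7 CPM after hyperoxia. It was higher in Classical Monocytes (1.70, adjusted p = 2.386e-09), at 10.7 and 2.49 CPM in room air and at 27.0 and 14.5 CPM after hyperoxia. These levels are below 1% of those in neutrophils of the same library. In Myofibroblasts Retnlg was called lower (-2.57, adjusted p = 6.203e-08), but its levels overlapped, at 7.83 and 124 CPM in room air and 2.36 and 19.1 CPM after hyperoxia. Mmp9 there was lower too (-2.40, adjusted p = 0.0186), at 17.2 and 23.0 against 2.36 and 5.10 CPM. Without the female hyperoxia library none of these 4 passed: Retnlg was then 1.78 in Arterial (adjusted p = 0.0733), 1.05 in Classical Monocytes (adjusted p = 0.0954) and -1.92 in Myofibroblasts (adjusted p = 0.510), and Mmp9 there was -1.98 (adjusted p = 0.287). Without the male hyperoxia library 2 of the 4 passed, the Arterial and Classical Monocytes ones. With either room air library left out 1 of the 4 passed, Retnlg in Classical Monocytes, and Retnlg in Myofibroblasts turned to 0.43 (adjusted p = 0.969) without the male room air library. Counting every pair of a member and a class, 2 passed without the male room air library (2.54% of all pairs called), 8 without the female room air library (2.64%), 4 without the female hyperoxia library (1.77%) and 4 without the male one (1.32%).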

How the data were processed

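Single-cell RNA was measured in 6 lung libraries, grouped by sex, postnatal day and treatment as in the labels. The authors deposited UMI counts per gene and barcode, made with Cell Ranger 6.0.0 and Seurat 4.1.1 on mm10 per the submitters' processing notes. The file headers name Cell Ranger 6.0.0 for day 1 and 7.0.1 for day 21. Cell classes were the authors' deposited annotation, and barcodes without a class entered no comparison. Whether the deposited matrices had been cleared of doublets is not given in the sources used here. Doublets were called with Scrublet (scanpy 1.11.5) and kept in the main results.

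Counts were summed per class and library where no library compared had fewer than 50 cells of the class, and tested with edgeR 4.0.16 (R 4.3.3): filterByExpr, TMM scaling, quasi-likelihood test, Benjamini-Hochberg adjustment over all genes tested in a class, called at an adjusted p under 0.05. SEs are the log2 change divided by the root of F. Age used the 4 room air libraries and hyperoxia the 4 day 21 libraries, both with sex as covariate. Sex used all 6 libraries with condition as covariate. Age and hyperoxia share the day 21 room air libraries. With a library left out, the age and hyperoxia fits had no sex term and assumed that the lone library varies like the others. The fitting script was tested on simulated neutrophil counts with a set spread between libraries, a negative binomial dispersion of 0.05 that was not fitted to the data. Recovery at the spread of these libraries was not simulated. It recovered 14.3% of 2-fold changes for age, 22.2% for hyperoxia and 41.7% for sex. At 4-fold it recovered 90, 90 and 99%. Of its calls 7.14, 3.45 and 2.86% were false. In that setting most 2-fold changes were missed. A member that did not pass is not shown to be unchanged. Levels are UMIs per 1000000 UMIs of a class (CPM), with exact Poisson or binomial 95% intervals that cover counting error only.

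The genes named are the 10 members in every comparison and, for each listed programme, the called genes with the largest and smallest change, plus every called list gene after hyperoxia. In the descriptions of other cells, genes were chosen after their values were seen. BC100530, 1 listed gene, was not matched in the files. Members and lists were chosen with earlier results of these data known. Other settings run were no low-count filter, scaling by the upper quartile, DESeq2 1.42.0, no covariate, no doublets, a minimum of 1000 UMIs, other stage limits and each library left out. The age test of Ltf, Camp and Ngp in the Neutrophils class alone was dropped after seeing the data. Summing both neutrophil classes, and taking cells under 1% secondary transcripts, were added after seeing the data. Upstream sequences came from RefSeq, matched for 9 of 10 members, and were cut before the first annotated exon.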

Additional observations from a re-analysis of the deposited data

Results flagged for a closer look

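Lcn2 in the Neutrophils class moved in opposite directions in the sexes after hyperoxia, with a log2 ratio of hyperoxia to room air of -0.11 in females and 0.51 in males. Mmp9 did so the other way, at 0.18 in females and -0.087 in males. Between day 1 and day 21 in room air the log2 ratio of Lcn2 was 0.34 in females and -0.18 in males, and that of Mmp9 was -0.049 in females and 0.13 in males. Each value compares 1 library with 1 other, the differences between the sexes were not tested, and the hyperoxia and age ratios share the day 21 room air libraries.

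Barcodes that the authors left without a class also held granule transcripts. At least 1% of UMIs came from Ltf, Camp and Ngp in 2.77% of them in the day 1 female library, 1.98% in the day 1 male library, 0.488% in day 21 female room air, 0.434% in male room air, 0.407% in female hyperoxia and 0.787% in male hyperoxia. Among gCap cells the share was 0.388% in the day 1 female library and 0 in the others. The male room air value is given for completeness, since its exact interval overlapped that of gCap cells. At least 5 primary granule UMIs were found in 0.409% of the day 1 female barcodes without a class (14 of 3425), where no gCap cell had as many.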

How the results depend on the processing

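Of the settings tried for single granule genes, 230 values kept their direction and side of the threshold, 20 came to pass it, 2 no longer passed it and 35 changed sign. The labels carry no replicate numbers, and the sex term of the age and hyperoxia fits pairs the libraries by sex. The cause of the changes below was not tested.

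Genes called in neutrophils for age were 3491 with DESeq2 in place of 6314. For hyperoxia, in place of 99, they were 387 without doublets, 286 in cells under 1% secondary transcripts, 496 without the low-count filter, 158 with upper-quartile scaling, and 153 to 873 with 1 library left out. For sex, in place of 10, they were 19 without doublets, 5 over both classes, 6 in cells under 1% secondary transcripts, 2 without the covariate, 107 without the filter and 8 to 134 with 1 library left out. Granule genes called for hyperoxia were 5 without doublets, 5 without the filter and 0 to 5 with 1 library left out. For sex 1 was called without the filter and 0 to 1 with 1 library left out. Pairs called outside neutrophils were 21 with DESeq2 for age. For hyperoxia they were 0 with DESeq2, 1 without the covariate, 15 without the filter and 2 to 8 with 1 library left out.

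In the order day 1 female, day 1 male, day 21 female and male room air, and female and male hyperoxia, neutrophils were 7.59, 8.73, 16.9, 9.28, 7.23 and 8.59% of every barcode and 27.2, 30.4, 37.5, 22.4, 21.8 and 29.99% of immune cells. At day 1 they were 10.9 and 11.9% of cells without doublets and 12.8 and 14.1% with both classes counted. The secondary-high share at day 1 was 0.0880 and 0% in the Neutrophils class alone, 14.4 and 12.7% without doublets, 20.1 and 17.2% at a limit of 0.5%, and 14.03 and 11.7% at 2%. The tertiary-high share at day 1 was 47.6 and 55.9% in the Neutrophils class alone. At a limit of 0.5% it was 66.2, 75.3, 33.4, 36.9, 49.3 and 55.7% in the order above, at 2% it was 30.3, 40.2, 6.25, 5.12, 13.2 and 15.8%, and thinned to 1000 UMIs it was 36.8% in male hyperoxia. The order of the 3 conditions held at each limit. With at least 1 primary UMI required, shares were 1.15, 0.947, 1.83, 1.33, 1.15 and 1.96%, and with at least 5, or after thinning, 0% in each of the 4 libraries that had any such cell.

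Apart from the sum of both classes, each age fit that gives Ltf, Camp and Ngp a value keeps the authors' split of the Ngp+ cells, so their steadiness there says nothing. Over both classes the age changes became -2.78 for Camp, -2.38 for Ltf, -2.54 for Ngp, 0.018 for Mmp9 and 0.56 for Prtn3. Lcn2 for age was 0.015 without the filter and -0.20 to 0.13 with 1 library left out. For hyperoxia Lcn2 was -0.056 in cells under 1% secondary transcripts and -0.017 to 0.33 with 1 library left out. Mmp9 was -0.00055 with DESeq2, -0.0086 in cells under 1% secondary transcripts and -0.081 to 0.076 with 1 library left out, and Prtn3 was -0.013 with DESeq2 and -0.51 to 0.41. For sex Camp was -0.022 without doublets, -0.11 over both classes, -0.25 without the covariate and -0.18 to 0.37 with 1 library left out. Mmp9 was -0.031 over both classes, -0.0063 in cells under 1% secondary transcripts and -0.043 to 0.076 with 1 library left out, Lcn2 was -0.30 to 0.030 and Prtn3 was -0.28 to 0.34. Retnlg for hyperoxia stayed between 0.73 and 0.93 in every setting run.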

Other observations

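Most primary granule RNA of the male hyperoxia library lay in barcodes that have no class. There 8 barcodes of 3938 had at least 5 UMIs of Elane, Mpo and Prtn3 together, the richest of them 815, and the 8 held 88.6% of the library's primary granule UMIs. They had 185 UMIs of Elane, 655 of Mpo and 672 of Prtn3. Of these 8 barcodes 7 had a UMI of the progenitor gene Cd34, 5 of Kit, 4 of Myb and 6 of the cell cycle gene Mki67, and none had a UMI of Ngp. Among the other barcodes of that library without a class the shares were 25.4% for Cd34, 21.7% for Kit, 4.89% for Myb, 8.73% for Mki67 and 3.44% for Ngp. At day 1, 14 female and 12 male barcodes without a class held 24.7 and 24.4% of the primary granule UMIs of their libraries, and 10 of the 14 and 8 of the 12 had a UMI of Cd34, against 25.4 and 35.7% of the other barcodes without a class. In the female hyperoxia library 2 such barcodes held 14.2%, and its matrix had 0 Elane UMIs in all.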
